A study of Homo sapiens with 9 samples.

Results

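The genes described are 10 components of the Notch pathway: the ligand genes DLL1, DLL3, DLL4, JAG1 and JAG2, the receptor genes NOTCH1 and NOTCH2, and the nuclear HES and HEY family genes HES1, HES6 and HEY1. Every probe set annotated to exactly 1 gene symbol among these was taken, which gave 27 probe sets of 10 genes out of 54675 on the array. Expression was measured on 9 Affymetrix arrays in H69, an established line of human small cell lung cancer that has neuroendocrine features. The cells received PIK75 at 100 nM (3 arrays), TGX221 at a labelled 1 mM (3 arrays) or, as the control, DMSO (3 arrays), each for 24 h. Both compounds inhibit phosphoinositide 3-kinases, the lipid kinases that pass on growth factor signals, and TGX221 mainly blocks the PIK3CB isoform. Whether the labelled unit of the TGX221 dose is right could not be checked, the doses of the inhibitors differ, and the treatment field of the control arrays reads none while their protocol gives DMSO. No label says that the arrays of a group came from separate cultures, so the spread behind the p-values is that between arrays and may be technical.

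In the Notch pathway, a ligand on one cell binds a receptor on a neighbouring cell. The receptor is then cut at the membrane by ADAM proteases and gamma-secretase, and its intracellular part enters the nucleus, where it joins the DNA-binding protein RBPJ and switches on target genes such as HES1 and HEY1. HES and HEY proteins are repressors that hold back proneural transcription factors. In small cell lung cancer the pathway is known for opposing the neuroendocrine state: DLL3, an inhibitory ligand found mainly inside the cell, is abundant in neuroendocrine tumours, and HES1 marks cells that have left that state.

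The promoters of HES1 and HES6 are shown because probe sets of both genes were lower after PIK75 and because HES1 is the textbook target of the pathway. They run from 250 bases before to 50 bases after the start of the gene (RefSeq, GRCh38.p14, strand of the gene), at chr3:194135898-194136197 on the plus strand for HES1 and at chr2:238239989-238240288 on the minus strand for HES6. Capitals mark 3 motifs searched on both strands: TGGGAA, the core of the RBPJ site; CACNAG, the N-box that HES proteins bind, read as CTNGTG on the other strand; and CAGCTG, an E-box that reads the same on both strands and is bound by proneural factors.
HES1: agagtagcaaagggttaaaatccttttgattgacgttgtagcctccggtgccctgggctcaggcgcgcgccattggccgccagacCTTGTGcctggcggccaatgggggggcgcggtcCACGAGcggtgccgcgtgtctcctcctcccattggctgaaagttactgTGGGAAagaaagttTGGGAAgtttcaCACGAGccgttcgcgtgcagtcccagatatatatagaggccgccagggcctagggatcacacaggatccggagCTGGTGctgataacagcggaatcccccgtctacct
HES6: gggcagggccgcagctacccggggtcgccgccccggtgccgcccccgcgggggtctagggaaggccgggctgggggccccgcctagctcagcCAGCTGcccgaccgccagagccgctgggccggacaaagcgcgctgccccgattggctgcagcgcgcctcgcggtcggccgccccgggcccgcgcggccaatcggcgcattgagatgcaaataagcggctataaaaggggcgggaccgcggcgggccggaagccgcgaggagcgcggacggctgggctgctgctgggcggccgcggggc

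The HES1 window holds TGGGAA at 84 and 70 bases before the start, both on the strand of the gene, and the first of them extends to the longer GTGGGAA. It also holds 4 N-boxes, 2 on each strand. The HES6 window holds 1 E-box, 158 bases before the start, and neither TGGGAA nor CACNAG. Of 35116 promoters in the same table, 24.0% hold TGGGAA, 6.25% GTGGGAA, 38.0% CACNAG and 17.9% CAGCTG. Promoters of 7 of the 10 genes were in the table (not DLL1, DLL3 and HEY1), and HES1 was the 1 gene among these 7 with TGGGAA in its window. A match describes the letters of the window and is not a measured binding site.

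Markers of neuroendocrine cells were present on all arrays: 10 of 11 listed genes were measured, and all 10 lay above the median level of the array's probe sets. Their mean level per array was 11.25 to 11.29 (log2) on PIK75 arrays, 11.70 to 11.72 on TGX221 arrays and 11.68 to 11.69 on control arrays, and as deposited 5 of the 10 fell with PIK75 while 1 rose. Of all 19775 genes, each by its brightest probe set, 4894 (24.7%) were lower and 6581 higher. Of 8 markers that label the non-neuroendocrine form of the tumour, 5 lay below that median and their mean level per array was 7.06 to 7.08 with PIK75, 7.12 to 7.15 with TGX221 and 7.14 to 7.16 in control. As deposited 3 of these 8 rose with PIK75 and 1 fell (CD44, with a difference of -2.06, named after its value was seen), with a median of 0.15. Fibroblast markers (5 measured) averaged 7.69 to 7.78 with PIK75, 7.44 to 7.58 with TGX221 and 7.45 to 7.54 in control. Leukocyte markers (3 measured) averaged 6.70 to 6.92, 6.65 to 6.74 and 6.57 to 6.70 in the same groups, and endothelial markers (3 measured) 7.62 to 7.73, 7.36 to 7.41 and 7.42 to 7.48. As deposited 4 fibroblast, 1 leukocyte and 2 endothelial markers passed as higher with PIK75, and 0 as lower. All these marker counts are to be read beside the shares over all genes. The array values have no zero level, so absence of a marker cannot be read from them. The difference between the 3′ and the 5′ probe set of beta-actin, a measure of RNA integrity, was 0.47, 0.54 and 1.13 on the PIK75 arrays and 0.24 to 0.44 on the other 6 arrays, so PIK75 replicate 5 stood apart in it. The same measure for GAPDH was 0.05 higher on PIK75 arrays than on control arrays, against 0.39 for beta-actin. The spike transcripts added just before hybridization read 0.35 higher (log2) on PIK75 arrays than on control arrays, against 0.08 for the median of all probe sets and 0.08 for the spikes added before labelling. The part of these differences in the results below was not tested except where a value is given.

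The difference between PIK75 and control asks what 24 h of this inhibitor did to each component. HEY1, HES6 and the brightest probe sets of HES1, NOTCH2 and DLL3 were lower after PIK75, by 1.24-fold to 1.55-fold, while other probe sets of HES1, NOTCH2 and DLL3 fell, were higher or did not pass. Of the 27 probe sets, 18 passed the test at an adjusted p below 0.05 (limma across all probe sets), 7 of them higher and 11 lower, and 9 did not pass. This must be read against a background in which 50.2% of all 54613 probe sets tested passed, 30.3% higher and 19.9% lower. The median difference over the 27 was 0.03 on the log2 scale, against 0.08 over all probe sets. The PIK75 and control arrays did not overlap for 9 probe sets that were higher and 11 that were lower, where 57.5% of all probe sets were separated, 36.2% higher and 21.4% lower. With the actin difference of each array as a covariate, chosen after seeing the data, 9 of the 27 passed (1 higher, 8 lower), against 34.3% of all probe sets (17.8% higher, 16.5% lower). Without PIK75 replicate 5, 12 passed (3 higher, 9 lower), against 43.2% of all probe sets (24.8% higher, 18.5% lower). In bulk RNA, fewer cells of a kind and less RNA per cell cannot be told apart.

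The split between higher and lower depended on how the arrays were scaled. Centring each array on its hybridization spikes lowers every difference between PIK75 and control by the same 0.35, so by construction decreases grow and increases below that size turn negative. It gave 0 higher and 21 lower among the 27, against 1.55% and 68.8% of all probe sets. Of the 7 increases 6 became negative there, and that of HES1 203393_at dropped to 0.07. Median centring gave 3 higher and 11 lower among the 27 (18.9% and 22.3% of all probe sets), the spikes added before labelling 2 and 11 (9.02% and 20.6%), and cyclic loess 5 and 10 (15.9% and 21.8%). The 8 decreases with an adjusted p below 0.01, listed with their genes below, passed at an adjusted p below 0.05 in the same direction under each scaling, filter, estimate of spread and left-out array in which the probe set was tested. These 8 were picked for a small p as deposited, which favours keeping the call, and hybridization spike scaling enlarges decreases by construction. Over all probe sets, 16.4% were lower at an adjusted p below 0.01, and 8.2% passed as lower with at least 1.5-fold. Of the 8 member decreases, 2 reached 1.5-fold, and the mean over all probe sets of the gene did not pass for HES1 (-0.10) and DLL3 (0.09).

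**Figure D1:**
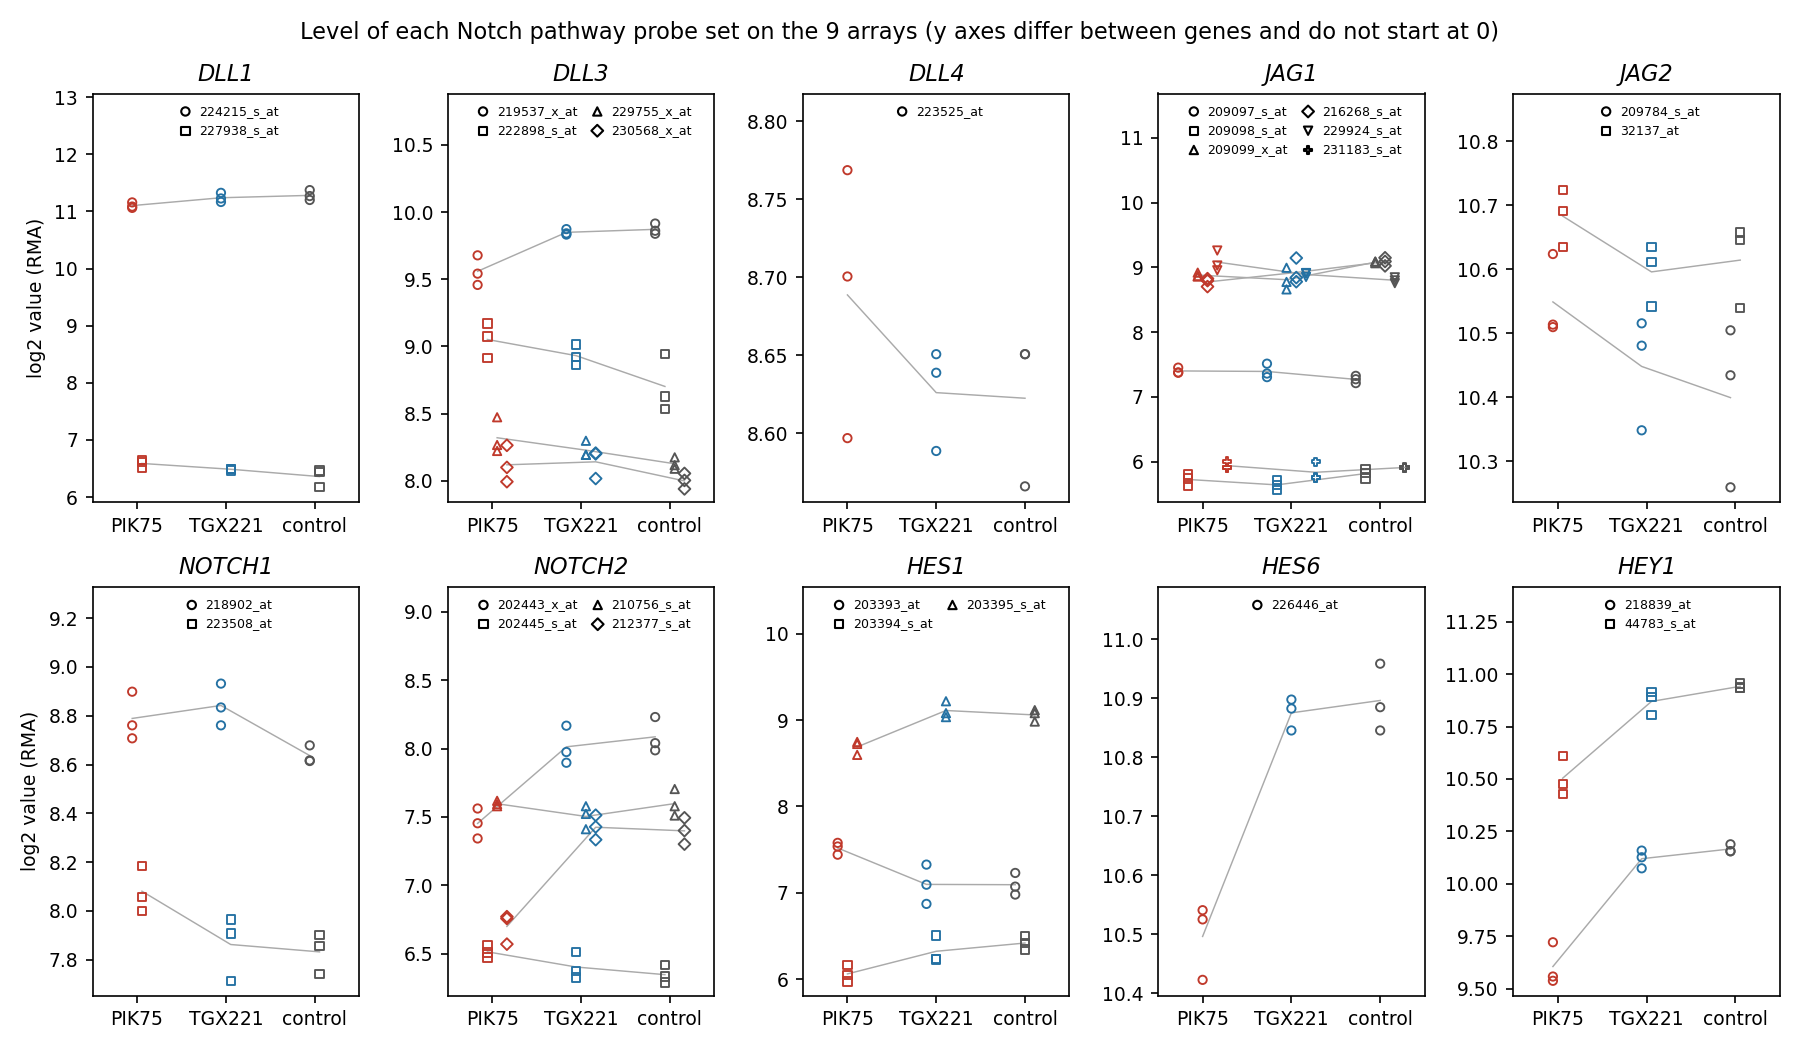
Each panel gives 1 gene, and each point the log2 value of 1 probe set (symbol) on 1 array (PIK75 red, TGX221 blue, control grey), with thin lines joining the group means. For both HEY1 probe sets, HES6 and NOTCH2 212377_s_at, the PIK75 points lie below all TGX221 and control points of the same probe set. Compared likewise, the PIK75 points lie above for HES1 203393_at and below for HES1 203395_s_at. Under hybridization spike scaling the 203393_at difference from control drops to 0.07.

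Among the ligands, DLL3 had the clearest single decrease after PIK75, but its probe sets did not move together. DLL3 219537_x_at read 9.54, 9.46 and 9.68 on the PIK75 arrays and 9.87, 9.84 and 9.83 on the TGX221 arrays, against 9.84, 9.91 and 9.86 on the control arrays. All PIK75 arrays lay below all others, and the difference from control was -0.31 ± 0.06 (log2, SE; 1.24-fold lower, adjusted p = 0.0013). The other probe sets of DLL3 went the other way: 222898_s_at was higher by 0.35 ± 0.10 (adjusted p = 0.013) and 229755_x_at by 0.19 ± 0.07 (adjusted p = 0.0343), both turning negative under the hybridization spikes (-0.0023 and -0.16). The first of these calls was lost under 4 of 21 alternatives and the second under 9 of 21. The remaining probe set, 230568_x_at, differed by 0.12 (95% interval -0.05 to 0.29) and did not pass. For 222898_s_at the groups overlapped, with 8.91, 9.17 and 9.07 after PIK75 and 8.95, 8.63 and 8.53 in control.

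DLL1, a ligand that activates receptors on neighbouring cells, was split in the same way between its 2 probe sets. DLL1 224215_s_at read 11.09, 11.16 and 11.06 on PIK75 arrays and 11.27, 11.37 and 11.20 on control arrays, a difference of -0.18 ± 0.06 (adjusted p = 0.0323). DLL1 227938_s_at read 6.51, 6.65 and 6.61 on PIK75 arrays and 6.47, 6.17 and 6.44 on control arrays, a difference of 0.23 ± 0.08 (adjusted p = 0.0251) that became -0.12 under the hybridization spikes. Neither pair of groups overlapped, yet the decrease no longer passed under 7 of 22 alternatives and the increase under 8 of 20.

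JAG1, a Jagged-type ligand, had 6 probe sets, of which 2 were lower after PIK75, 1 was higher and 3 did not pass. JAG1 216268_s_at read 8.82, 8.79 and 8.70 on PIK75 arrays against 9.09, 9.15 and 9.02 on control arrays (-0.31 ± 0.09, adjusted p = 0.0102). JAG1 209099_x_at read 8.87, 8.86 and 8.92 on PIK75 arrays against 9.09, 9.09 and 9.06 on control arrays (-0.20 ± 0.07, adjusted p = 0.0414), but this call was lost under 9 of 21 alternatives, among them leaving out any 1 PIK75 or control array (adjusted p 0.0562 to 0.101). JAG1 229924_s_at ran against both, with 8.95, 9.03 and 9.26 on PIK75 arrays against 8.75, 8.85 and 8.80 on control arrays (0.28 ± 0.07, adjusted p = 0.00766), and turned to -0.07 under the hybridization spikes. None of these 3 pairs of groups overlapped. The 3 that did not pass differed from control by 0.13 (209097_s_at), -0.09 (209098_s_at) and 0.03 (231183_s_at).

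DLL4, a ligand best known from blood vessels, and JAG2, the second Jagged ligand, did not pass the test after PIK75. DLL4 223525_at read 8.60, 8.70 and 8.77 on PIK75 arrays and 8.65, 8.65 and 8.57 on control arrays, with overlapping groups and a difference of 0.07 (95% interval -0.06 to 0.19). For JAG2 the differences were 0.15 (-0.01 to 0.31) for 209784_s_at and 0.07 (-0.05 to 0.19) for 32137_at. Both JAG2 probe sets passed as higher after cyclic loess (0.26 and 0.18) and as lower under the hybridization spikes (-0.20 and -0.28), so the scaling set their direction.

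Of the receptors, NOTCH2 carried the largest decreases among the 27 probe sets. NOTCH2 212377_s_at read 6.57, 6.77 and 6.76 on PIK75 arrays and 7.43, 7.51 and 7.33 on TGX221 arrays, against 7.30, 7.40 and 7.49 on control arrays. The PIK75 arrays lay clear of both other groups, with a difference from control of -0.70 ± 0.07 (1.62-fold lower, adjusted p = 1.15e-05). NOTCH2 202443_x_at read 7.34, 7.45 and 7.56 on PIK75 arrays and 7.90, 8.17 and 7.97 on TGX221 arrays, against 7.99, 8.23 and 8.04 on control arrays. It gave -0.63 ± 0.09 against control (1.55-fold lower, adjusted p = 9.93e-05), again without overlap. These were the only 2 of the 27 probe sets to pass with at least a 1.5-fold difference. Of all probe sets 9.41% did so, 1.21% higher and 8.2% lower.

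The other NOTCH2 probe sets did not share this decrease. NOTCH2 202445_s_at was higher by 0.17 ± 0.06 (adjusted p = 0.04), turned to -0.18 under the hybridization spikes and lost its call under 12 of 20 alternatives, among them median centring (adjusted p = 0.16) and cyclic loess (adjusted p = 0.53). The fourth, 210756_s_at, differed by 0.00 (95% interval -0.14 to 0.14). NOTCH2 has human-specific partial copies, the NOTCH2NL genes, and the suffix x of 202443_x_at is Affymetrix's mark for a probe set that may cross-hybridize with other sequences. The 212377_s_at probe set carries instead the suffix s, for a probe set shared by several transcripts. Which transcripts these are was not checked, so the suffix does not show that it reads NOTCH2 alone.

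NOTCH1, the receptor whose loss-of-function mutations are known in small cell lung cancer, was higher by 1 of its 2 probe sets. NOTCH1 223508_at read 8.00, 8.06 and 8.18 on PIK75 arrays and 7.85, 7.90 and 7.74 on control arrays, without overlap, a difference of 0.25 ± 0.08 (adjusted p = 0.0182) that became -0.10 under the hybridization spikes and lost its call under 7 of 21 alternatives. NOTCH1 218902_at differed by 0.15 ± 0.06 and did not pass (adjusted p = 0.0663). The mean of both probe sets was higher by 0.20 (adjusted p = 0.0155 in a fit of 1 value per gene).

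HEY1, with 2 probe sets, and HES6, with only 1 and so no second reading, were the members for which every probe set fell. HEY1, a repressor switched on by activated Notch receptors, read 9.72, 9.54 and 9.56 at 218839_at on PIK75 arrays and 10.16, 10.07 and 10.13 on TGX221 arrays, against 10.15, 10.16 and 10.19 on control arrays. Its second probe set, 44783_s_at, read 10.47, 10.43 and 10.61 on PIK75 arrays and 10.91, 10.80 and 10.89 on TGX221 arrays, against 10.93, 10.95 and 10.94 on control arrays. For both, the 3 PIK75 arrays were the lowest of the 9. The difference from control was -0.56 ± 0.06 (1.48-fold lower, adjusted p = 1.04e-05) at 218839_at and -0.44 ± 0.06 (1.35-fold lower, adjusted p = 8.05e-05) at 44783_s_at.

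HES6 differs in role from the other family members, as it counteracts HES1 and promotes neuronal differentiation. HES6 226446_at read 10.53, 10.42 and 10.54 on PIK75 arrays and 10.90, 10.85 and 10.88 on TGX221 arrays, against 10.88, 10.85 and 10.96 on control arrays. The PIK75 arrays were again the lowest, with a difference from control of -0.40 ± 0.05 (1.32-fold lower, adjusted p = 9.23e-05).

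HES1 gave opposite readings within a single gene. HES1 203395_s_at, the brightest, read 8.72, 8.60 and 8.75 on PIK75 arrays and 9.03, 9.08 and 9.22 on TGX221 arrays, against 8.98, 9.11 and 9.08 on control arrays. HES1 203393_at read 7.58, 7.44 and 7.54 on PIK75 arrays and 7.09, 6.87 and 7.33 on TGX221 arrays, against 7.07, 7.23 and 6.98 on control arrays. In neither did the PIK75 arrays overlap the others, but they were the lowest 3 in the first and the highest 3 in the second.

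The difference from control was -0.37 ± 0.07 at 203395_s_at (1.29-fold lower, adjusted p = 0.000737) and 0.42 ± 0.10 at 203393_at (1.34-fold higher, adjusted p = 0.00495), the second dropping to 0.07 under the hybridization spikes. HES1 203394_s_at read 5.97, 6.16 and 6.05 on PIK75 arrays and 6.34, 6.42 and 6.50 on control arrays (-0.36 ± 0.08, adjusted p = 0.00377). The platform annotation gives the same source sequence for 203393_at, which was higher, and 203394_s_at, which was lower. The mean of the 3 HES1 probe sets differed by -0.10 and did not pass (adjusted p = 0.204).

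**Figure D2:**
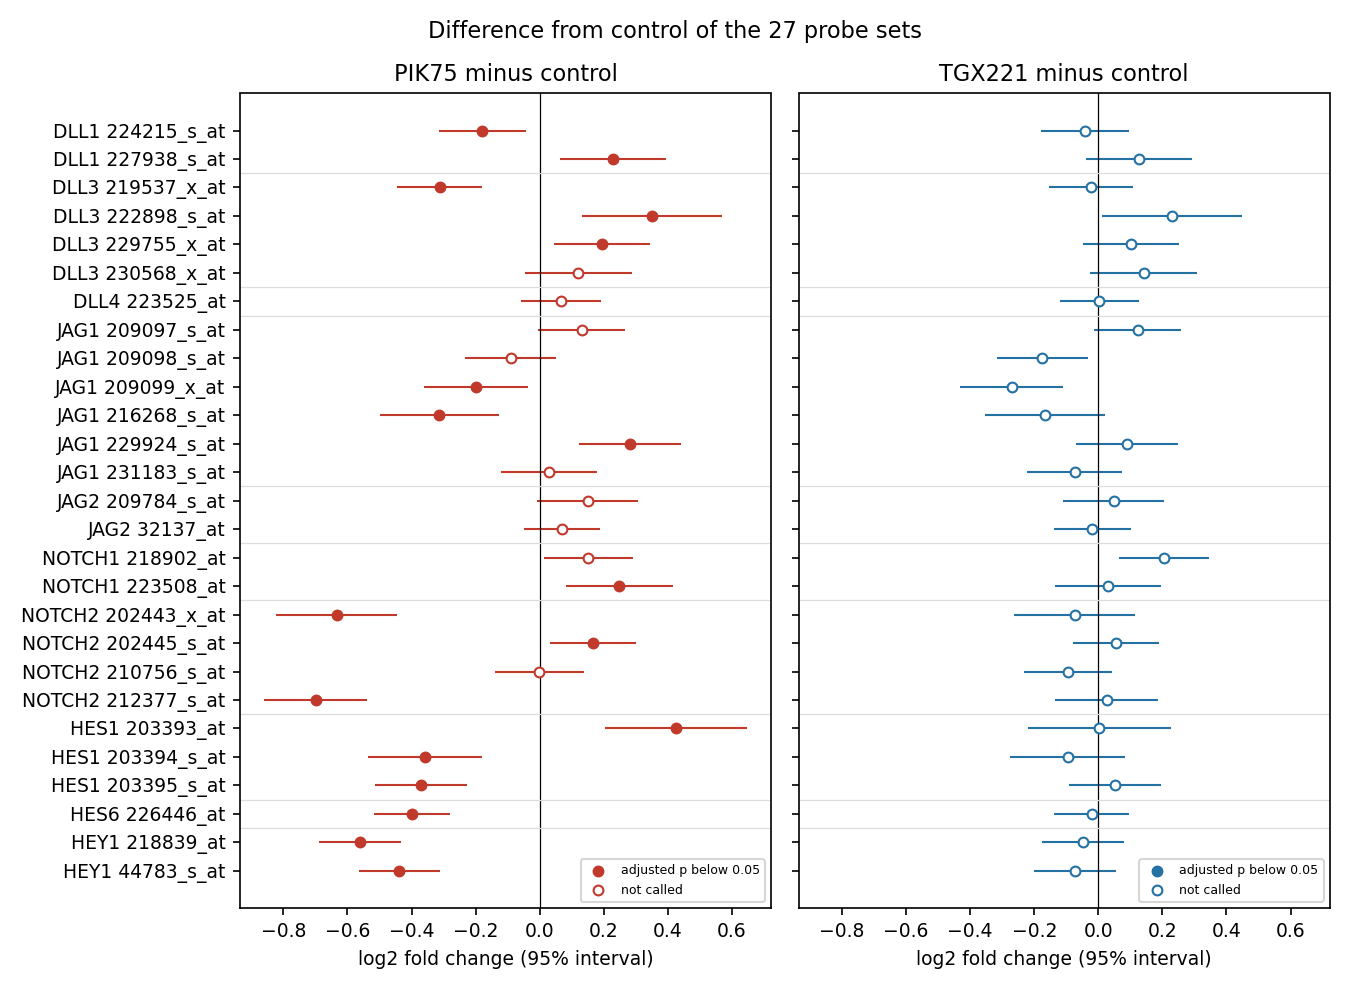
Points give the log2 difference from control for each of the 27 probe sets with its 95% interval, for PIK75 (left, red) and TGX221 (right, blue); filled points passed at an adjusted p below 0.05. With PIK75, 11 filled points lie left of 0 and 7 right of it (0 under hybridization spike scaling), and with TGX221 none is filled.

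Opposite calls within a gene were found for 5 of the 8 members with several probe sets (DLL1, DLL3, JAG1, NOTCH2 and HES1), or 62.5%. Among all 10523 genes with several probe sets, 1481 (14.1%) had calls in both directions, and members with more probe sets have more chances of such a split. The count depended on scaling: it was 3 of 8 with median centring and with cyclic loess (DLL3, HES1 and JAG1; 10.7% and 10.1% of all genes), 2 of 8 under the spikes added before labelling (5.59%) and 0 of 8 under the hybridization spikes (2.58%). With the actin covariate, chosen after seeing the data, 1 higher call was left among the 27, that of HES1 203393_at. HES1 alone was then still split, and the share of all genes split in that fit was not computed. Taking only the brightest probe set of each gene, 7 of 10 members passed and all 7 were lower, against 58% of 19775 genes passing and 24.7% lower. For JAG1 this choice hung on a near tie: 216268_s_at, 229924_s_at and 209099_x_at had mean levels of 8.93, 8.92 and 8.92, and the second of these was higher after PIK75. With the mean of a gene's probe sets, 4 of 10 passed, NOTCH1 as higher and NOTCH2 (-0.29), HES6 (-0.40) and HEY1 (-0.50) as lower. Of all 19775 genes, 62.5% passed in that fit, 38.1% higher and 24.5% lower.

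Brightness and direction were linked on these arrays as a whole. In the brightest tertile (equal parts by mean level) of all probe sets 30.6% were higher and 39.8% lower after PIK75, in the middle tertile 39.9% and 14.7%, and in the dimmest tertile 20.5% and 5.1%. Of the 27 Notch probe sets, 15 lay in the brightest tertile (3 higher, 8 lower), 8 in the middle (3 higher, 2 lower) and 4 in the dimmest (1 higher, 1 lower). Both NOTCH2 probe sets that fell lay in the middle tertile and HES1 203394_s_at in the dimmest. The part of brightness in the members' directions was not tested.

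**Figure D3:**
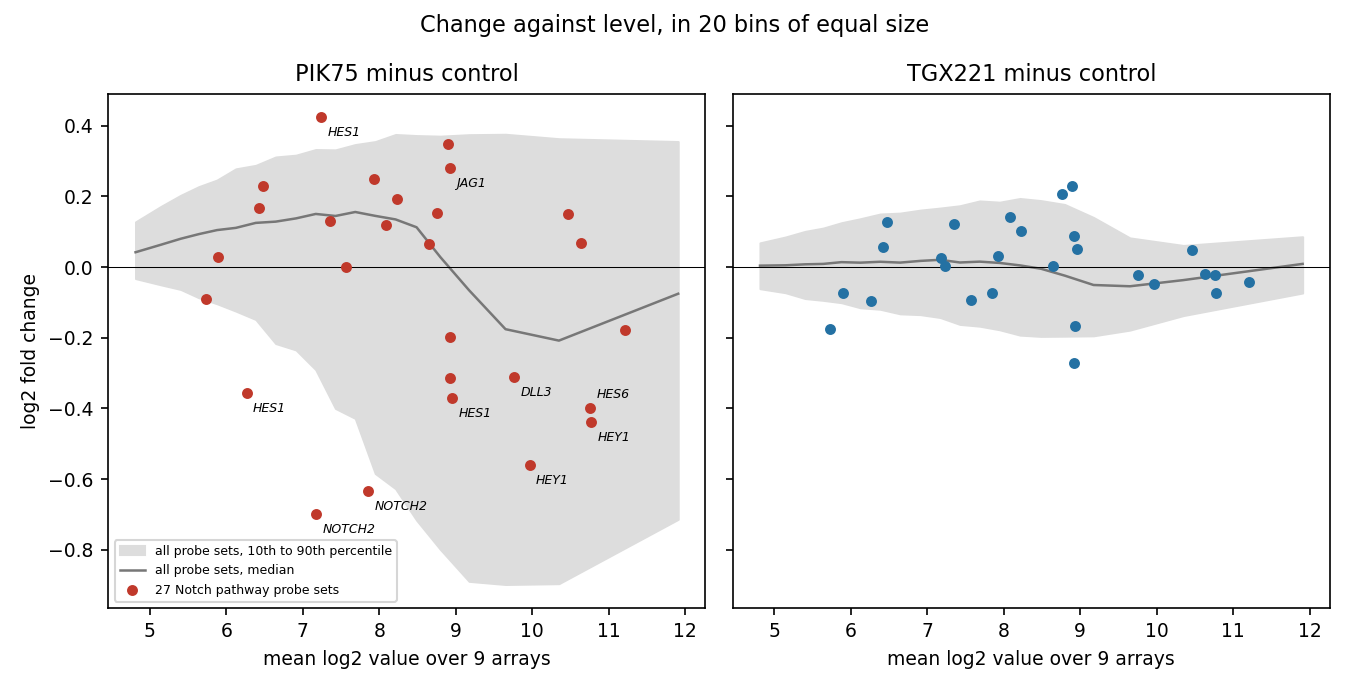
Each point is 1 of the 27 probe sets, placed by its mean log2 value over the 9 arrays (x axis) and its log2 difference from control (y axis), for PIK75 (left) and TGX221 (right); the line and the band give the median and the 10th to 90th percentile of all probe sets in bins of equal size. With PIK75, NOTCH2 212377_s_at (-0.70) and 202443_x_at (-0.63) and HES1 203394_s_at (-0.36) lie below the band, and HES1 203393_at (0.42, dropping to 0.07 under hybridization spike scaling) lies above it.

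With TGX221, none of the 27 probe sets passed the test against control (0 of 27, limma, smallest adjusted p = 0.112), against 0.269% of all probe sets. At an unadjusted p below 0.05 there were 4. These were DLL3 222898_s_at (0.23, 95% interval 0.01 to 0.45), NOTCH1 218902_at (0.21, 0.07 to 0.35), JAG1 209098_s_at (-0.17, -0.32 to -0.03) and JAG1 209099_x_at (-0.27, -0.43 to -0.11). Groups did not overlap for 3 probe sets that were higher and 3 that were lower with TGX221, while 21.6% of all probe sets showed such a separation.

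JAG1 209099_x_at came nearest to a call with TGX221. It read 8.66, 8.99 and 8.77 on the TGX221 arrays against 9.09, 9.09 and 9.06 on the control arrays, all 3 below the control range. It passed in 3 alternatives: with array weights (-0.31, adjusted p = 0.0345), under the hybridization spikes (-0.34, adjusted p = 0.0343) and without TGX221 replicate 3 (-0.36, adjusted p = 0.0284).

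The probe sets that separated most clearly with PIK75 stayed nearer to control with TGX221. HEY1 differed from control by -0.05 (95% interval -0.17 to 0.08) at 218839_at and -0.07 (-0.20 to 0.06) at 44783_s_at. HES6 differed by -0.02 (-0.14 to 0.10), and the NOTCH2 probe sets 212377_s_at and 202443_x_at by 0.03 (-0.13 to 0.19) and -0.07 (-0.26 to 0.12). HES1 203395_s_at differed by 0.05 (-0.09 to 0.20) and 203393_at by 0.00 (-0.22 to 0.23). As deposited, these intervals do not reach the differences from control seen with PIK75 at the same probe sets, at the labelled doses. For HES1 203393_at, however, the 95% interval with PIK75 (0.20 to 0.65) overlapped that with TGX221. Its PIK75 difference dropped to 0.07 under the hybridization spikes.

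PIK75 and TGX221 arrays were also compared directly, at their different doses. Of the 27 probe sets 10 passed, 2 higher with PIK75 and 8 lower, against 37.2% of all probe sets passing (20.3% higher, 16.9% lower; under the hybridization spikes 0 were higher and 21 lower, against 2.46% and 61.6%). The 8 lower were the same 8 probe sets with an adjusted p below 0.01 against control: DLL3 219537_x_at, both NOTCH2, both HES1, the HES6 and both HEY1 probe sets described above. Their differences from TGX221 were -0.72 and -0.56 for NOTCH2 (212377_s_at and 202443_x_at), -0.51 and -0.37 for HEY1 (218839_at and 44783_s_at), -0.42 and -0.26 for HES1 (203395_s_at and 203394_s_at), -0.38 for HES6 and -0.29 for DLL3. Adjusted p ranged from 1.03e-05 for NOTCH2 212377_s_at to 0.0255 for HES1 203394_s_at. The last of these calls was lost without PIK75 replicate 1 (adjusted p = 0.0833), PIK75 replicate 5 (0.0605) or TGX221 replicate 5 (0.0982) and with the actin covariate (0.0914).

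The 2 probe sets higher with PIK75 than with TGX221 were HES1 203393_at (0.42 ± 0.10, adjusted p = 0.00666), which dropped to 0.13 under the hybridization spikes, and NOTCH1 223508_at (0.22 ± 0.08, adjusted p = 0.0413), which turned to -0.07 there. The NOTCH1 call was lost under 13 of 21 alternatives, among them the replicate number as a block (0.26, adjusted p = 0.0762). NOTCH1 218902_at, by contrast, did not pass in this comparison (-0.05, 95% interval -0.19 to 0.09). The comparison with TGX221 and the comparison with control share the PIK75 arrays, so they are given side by side and not as independent results.

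**Figure D4:**
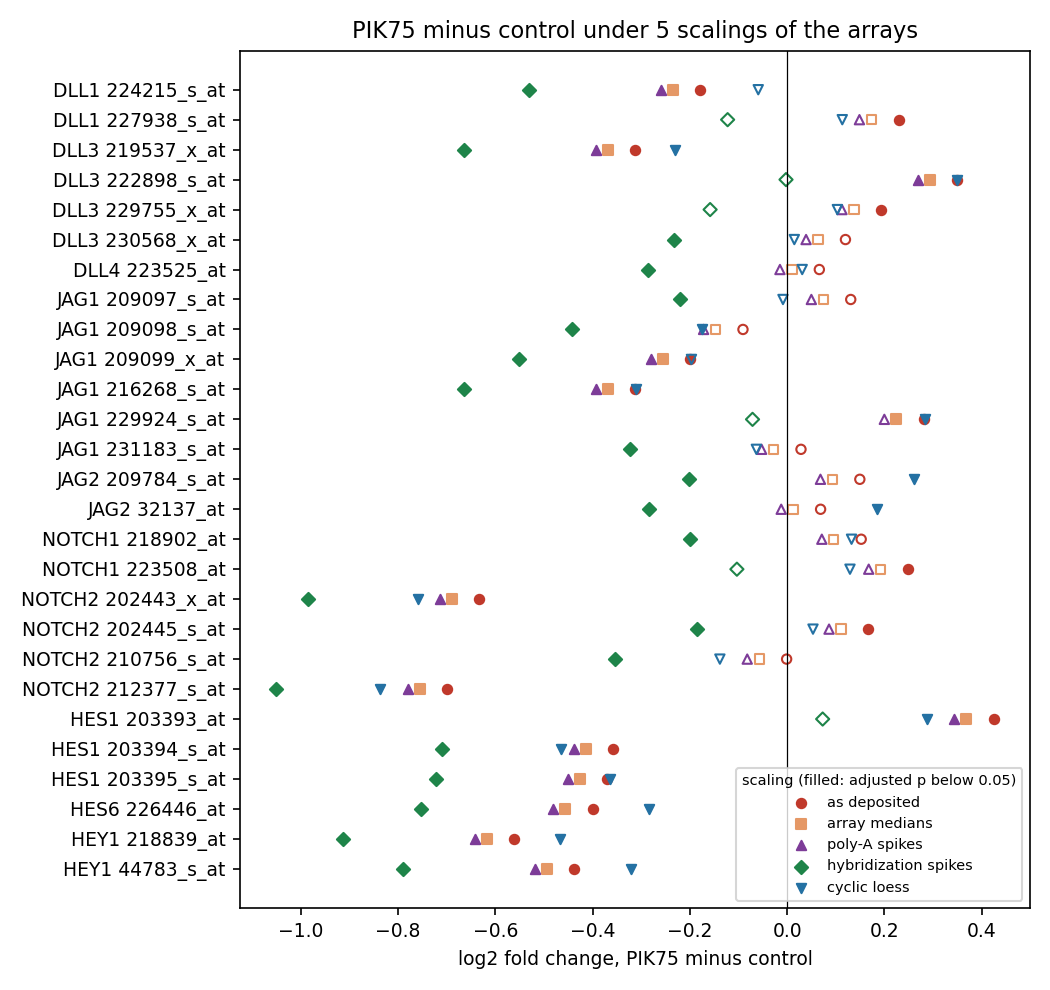
For each of the 27 probe sets the log2 difference of PIK75 minus control is given under 5 scalings of the arrays (symbols), filled where the adjusted p is below 0.05. The 8 probe sets of DLL3, NOTCH2, HES1, HES6 and HEY1 with the strictest calls are filled and left of 0 under every scaling drawn, while all 7 increases move left or across 0 under hybridization spike scaling.

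Genes whose brightest probe sets ran most like those of 4 members over the 9 arrays were sought among 17096 others by Pearson's r, as a description. HEY1 44783_s_at was most like FANCG (0.992), PITPNB (0.9918) and ETHE1 (0.9906). HES6 was most like FDPS (0.9964), RALYL (0.9962) and CD47 (0.9958). NOTCH2 202443_x_at was most like HELZ (0.9882), LRRC37A2 (0.9872) and PCDHB14 (0.9871), and HES1 203395_s_at most like MYH9 (0.9812), UBE2G2 (0.9794) and EFNA5 (0.9766). The 12 differed from control by -0.91 to -0.30 with PIK75 and by -0.16 to 0.06 with TGX221 on the log2 scale. The 9 points share their 3 groups, so high values of r mark a shared difference between groups.

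The rest of the pathway was described through 11 lists with 97 genes, of which 90 were measured, each by its brightest probe set. After PIK75, 56 of the 90 passed, 21 higher and 35 lower (4 and 64 under the hybridization spikes), which is 62.2% against 58% of all genes. Of all 19775 genes, 6581 were higher and 4894 (24.7%) lower. Under the hybridization spikes 1.55% of all probe sets were higher and 68.8% lower. The counts of each list below are to be read beside these shares. The median difference over the 90 was -0.02, against 0.09 over all genes. With TGX221 0 of 90 passed (limma), against 0.324% of all genes, with 11 at an unadjusted p below 0.05.

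Genes for cutting the receptor were mostly lower: 6 of 8 fell with PIK75 and 1 rose (7 and 0 under the hybridization spikes), with a median of -0.34. Of all genes 24.7% were lower as deposited, and of all probe sets 68.8% under the hybridization spikes. ADAM10, the protease that makes the first cut after ligand binding, fell by 0.49 ± 0.05 (adjusted p = 8.37e-06). The gamma-secretase subunit genes APH1B (-0.65 ± 0.07), NCSTN (-0.39 ± 0.06) and PSENEN (-0.31 ± 0.05) also fell. Another NCSTN probe set differed by 0.03 and did not pass.

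In the nuclear complex, 5 of 9 genes were lower and 0 higher (9 and 0 under the hybridization spikes), with a median of -0.27. The shares lower were again 24.7% of all genes as deposited and 68.8% of all probe sets under the hybridization spikes. The coactivator genes MAML2 and MAML3, whose proteins bind the receptor fragment together with RBPJ, gave differences of -1.12 ± 0.05 (adjusted p = 2.15e-08) and -1.30 ± 0.08 (adjusted p = 1.77e-07). The acetyltransferase genes CREBBP (-0.51 ± 0.07) and KAT2A (-0.32 ± 0.06) were lower too. For MAML3 and CREBBP other probe sets of the gene passed as higher (1 and 2 of them), and the other MAML2 probe set differed by 0.04.

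Ligand ubiquitin ligases, which mark ligands for the uptake that pulls on the receptor, were higher in 3 of 4 cases after PIK75 as deposited (0 higher and 1 lower under the hybridization spikes). MIB2 was higher by 0.39 ± 0.05, NEURL1B by 0.29 ± 0.05 and NEURL1 by 0.27 ± 0.06. Under the hybridization spikes none of these passed, with MIB2 at 0.03, NEURL1B at -0.06 and NEURL1 at -0.08. Another MIB2 probe set passed as lower.

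Corepressors, which keep RBPJ targets silent or act with HES proteins, moved both ways, 4 of 10 higher and 6 lower (2 and 6 under the hybridization spikes). SPEN, which binds RBPJ, was higher by 0.72 ± 0.06 (adjusted p = 1.99e-06) and TLE1, a partner of HES proteins, by 0.48 ± 0.07 (adjusted p = 0.000105), of which TLE1 no longer passed under the hybridization spikes (0.13). TLE2 fell by 0.59 ± 0.07, and CTBP1 fell by 0.40 ± 0.06. One other CTBP1 probe set passed as higher.

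Genes for receptor sugars split likewise, 2 of 5 higher and 3 lower (0 and 3 under the hybridization spikes). POGLUT1, which puts glucose on the receptor, fell by 0.61 ± 0.08. LFNG, a Fringe enzyme that extends receptor sugars, fell by 0.31 ± 0.06 but was higher by 0.40 at its other probe set. The Fringe genes RFNG and MFNG were higher by 0.37 ± 0.08 and 0.27 ± 0.06, though RFNG stood at 0.02 and MFNG at -0.08 under the hybridization spikes. The 2 other MFNG probe sets did not pass (0.05 and 0.15).

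Among genes for receptor turnover 2 of 12 were higher and 3 lower (1 and 9 under the hybridization spikes). The ubiquitin ligase gene DTX4 was higher by 0.73 ± 0.09 (adjusted p = 3.79e-05), while DTX1 fell by 0.41 ± 0.07 and NEDD4 fell by 0.57 ± 0.10. DTX3 was higher by 0.21 ± 0.06 and turned to -0.14 under the hybridization spikes.

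Of the other HES and HEY genes, 3 of 6 were higher and 1 lower (1 and 3 under the hybridization spikes). HEY2, a close relative of HEY1, was higher by 0.86 ± 0.09 at its brightest probe set (adjusted p = 9.28e-06) and fell by 0.82 at its other one. HEYL was higher by 0.31 ± 0.06 and HES7 by 0.23 ± 0.07, both turning negative under the hybridization spikes (-0.04 and -0.13). HES5, the family member prominent in neural progenitors, fell by 0.18 ± 0.05 (adjusted p = 0.0124).

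As deposited, the other ligands and receptors gave few calls, with 2 of 7 ligands lower and 1 of 3 receptors higher. Under the hybridization spikes 5 of 7 ligands and 2 of 3 receptors were lower, against 68.8% of all probe sets. CNTN1, a cell adhesion protein that can act as a Notch ligand, fell by 1.23 ± 0.07 (adjusted p = 5.92e-08), and 2 of its other 3 probe sets were lower as well. DLK1, an atypical ligand, fell by 0.15 ± 0.05 (adjusted p = 0.0387), a call lost under 9 of 22 alternatives, among them the replicate number as a block (adjusted p = 0.0552). The other DLK1 probe set differed by 0.05 and did not pass. The remaining 5 of the 7 other ligands did not pass as deposited. NOTCH3 was higher by 0.36 ± 0.06 (adjusted p = 0.000233), with a second probe set also higher, but dropped to 0.01 under the hybridization spikes.

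Proneural factors and ID proteins, which HES and Notch signals act on or alongside, had 2 of 15 genes higher and 6 lower (0 and 12 under the hybridization spikes). TCF12, a partner of proneural factors, fell by 0.72 ± 0.07 (adjusted p = 3.26e-06). Of its 3 other probe sets 1 passed as lower and the rest did not pass, with differences from -0.86 to 0.08. The genes of the ID proteins, which block partners of proneural factors, were lower for ID4 (-0.48 ± 0.07), ID1 (-0.45 ± 0.06) and ID3 (-0.38 ± 0.05), while 1 other ID4 probe set was higher and 2 lower.

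Genes known to respond to Notch in other tissues were 3 of 11 higher and 3 lower (0 and 7 under the hybridization spikes). CDKN1A, a cell cycle inhibitor, fell by 0.84 ± 0.08 (adjusted p = 6.64e-06). SOX9, a progenitor factor, fell by 0.68 ± 0.05 (adjusted p = 6.3e-07), and SNAI2, a factor of mesenchymal transition, fell by 0.61 ± 0.11 (adjusted p = 0.000634). MYC was higher by 0.49 ± 0.07 (adjusted p = 0.000163) and no longer passed under the hybridization spikes (0.13).

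**Figure D5:**
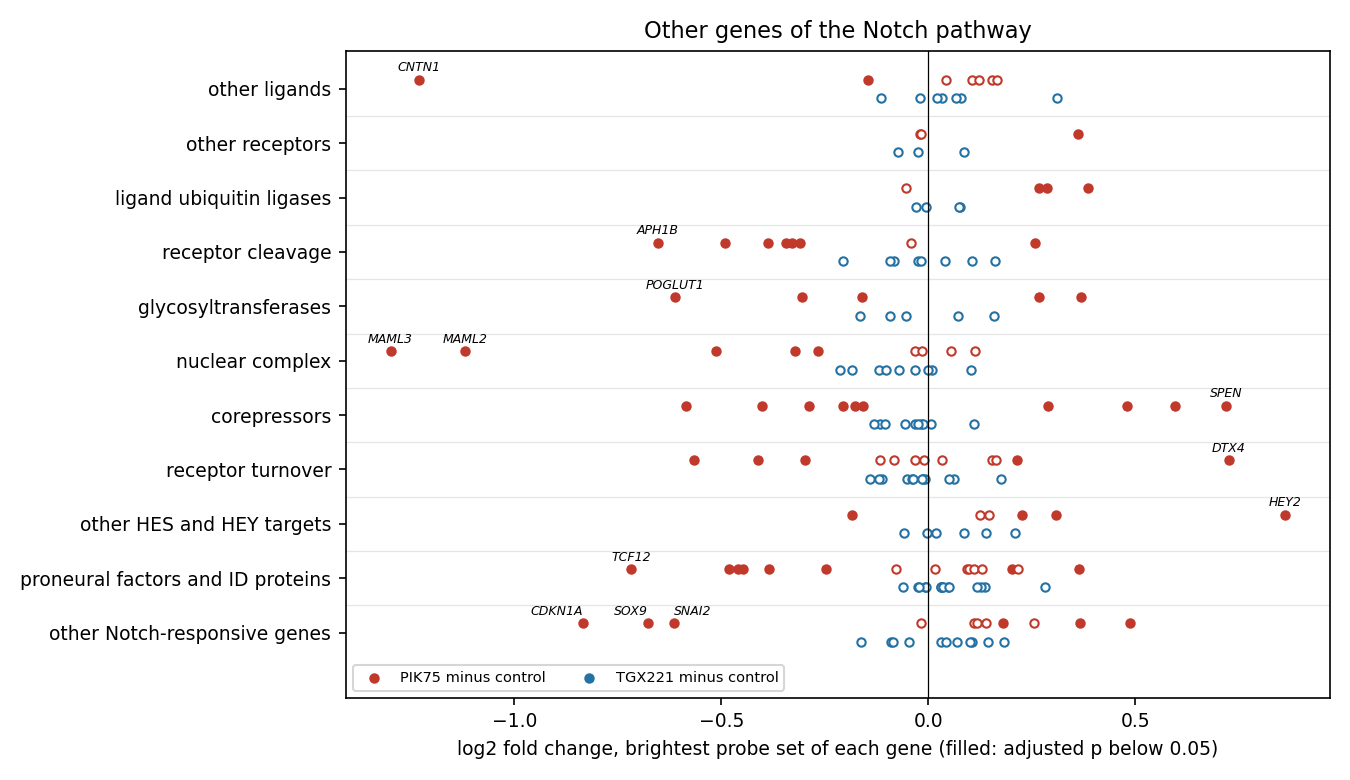
Each point is 1 of the 90 other pathway genes by its brightest probe set, placed in the row of its list by its log2 difference from control, for PIK75 (red) and TGX221 (blue), filled where the adjusted p is below 0.05. Red points run from -1.30 (MAML3) to 0.86 (HEY2), and no blue point is filled.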

How the data were processed

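The deposited table holds log2 values for 54675 probe sets on 9 Affymetrix arrays, which the authors made with RMA (version not given), per the submitters' processing notes. RMA forces the same distribution of probe intensities on every array, which can hide a shift shared by most transcripts. The deposited probe set values still differed in spread. Their interquartile range was 2.54 to 2.58 on PIK75 arrays, 2.67 to 2.69 on TGX221 arrays and 2.70 to 2.71 on control arrays. Their medians were 7.31 to 7.33, 7.27 to 7.29 and 7.26 to 7.27 in the same groups. The part of this narrower spread in the differences was not tested. Each array received label made from 2 ug of total RNA, per the labels. No raw intensities were used, 0 sample columns were left unmapped, and nothing was filtered out beyond the 62 Affymetrix control probe sets.

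Gene symbols came from the platform annotation: of the 54613 probe sets tested, 41091 carry 1 symbol (19775 genes), 1801 several and 11721 none. Members were taken by every probe set, other genes by the brightest probe set (highest mean over the 9 arrays), without setting one probe set's level against another's. Differences were tested with limma 3.58.1 (lmFit and eBayes, R 4.3.3) on all 9 arrays, as 1 model of 3 group means without covariates. All 3 comparisons thus rest on the same spread per probe set (6 residual degrees of freedom, with 5.63 more from the prior). P-values were adjusted across all 54613 probe sets by Benjamini and Hochberg and a probe set was called at an adjusted p below 0.05. Values after ± are standard errors of that fit. An exact test of 3 arrays against 3 cannot go below p = 0.1. On simulated data of the same size, the fit called 17 of 50 probe sets changed by 1.25-fold and 41 of 50 changed by 1.5-fold for PIK75 against control, with 8 false calls in all. Far fewer probe sets were changed there than were called in the data. The number of arrays limits the precision.

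Members, lists and tests were chosen with earlier results of these data known. Named were all probe sets of the members; from each list up to 4 genes with the smallest p for PIK75 against control, and up to 2 for TGX221, provided they passed the test (none did for TGX221); and, for the 4 members with the smallest p by brightest probe set, the 3 most correlated genes with a mean level of at least 6. Of the 97 list entries, 7 were not analysed here. Alternatives were other scalings, filters on dim probe sets, other units of the test, other estimates of spread, the replicate number as a block, stricter thresholds and leaving out each array in turn. Promoter sequences are from RefSeq (GRCh38.p14). Python 3.11.15 with pandas 2.3.3, numpy 2.4.6 and matplotlib 3.10.9 searched motifs and drew figures.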

Additional observations from a re-analysis of the deposited data

Results flagged for a closer look

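Probe set 227067_x_at was left out of the 27 because it is annotated to NOTCH2 together with the NOTCH2NL genes, partial copies of NOTCH2. It read 7.81, 7.74 and 7.91 on PIK75 arrays and 7.58, 7.48 and 7.62 on TGX221 arrays, against 7.62, 7.55 and 7.50 on control arrays. It was higher with PIK75 than in control by 0.26 ± 0.06 (log2, SE; adjusted p = 0.0044, limma), while 2 of the 4 probe sets annotated to NOTCH2 alone fell.

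The hybridization spikes, which are control transcripts outside the main measurement, read 0.35 higher on PIK75 arrays than on control arrays. The difference between the 3′ and 5′ probe sets of beta-actin was 0.39 larger on PIK75 arrays than on control arrays, with the highest value on PIK75 replicate 5 (1.13).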

How the results depend on the processing

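The 8 decreases with PIK75 at an adjusted p below 0.01 (DLL3 219537_x_at, NOTCH2 202443_x_at and 212377_s_at, HES1 203394_s_at and 203395_s_at, HES6, and both HEY1 probe sets) passed at an adjusted p below 0.05 in the same direction under each scaling, filter, estimate of spread and left-out array that tested them, with HEY1 218839_at between -0.91 and -0.47, NOTCH2 212377_s_at between -1.05 and -0.63 and HES6 between -0.75 and -0.28. These 8 were picked for a small p as deposited, which favours keeping a call. As deposited, 18 of the 27 member probe sets were called with PIK75, against 50.2% of all probe sets. By gene, 7 of 10 were called with the brightest probe set and 4 of 10 with the mean. Of the 27, 10 were called at an adjusted p below 0.01, 2 with at least 1.5-fold and 9 with the actin covariate. That covariate was added after seeing the data. Over all genes or probe sets the shares passing were, in the same order from the brightest probe set on, 60.4%, 62.5%, 33.2%, 9.41% and 34.3%. The 60.4% is from a fit of the brightest probe sets alone, the 58% above from the fit of all probe sets. For PIK75 against TGX221 the member count was 10 of 27 as deposited and 21 of 27 under the hybridization spikes. It was 5 and 3 of 10 genes (brightest and mean) and 1 of 27 with at least 1.5-fold. The shares passing in that comparison were 37.2%, 64%, 47.4%, 48.6% and 7.86%. Over all 54613 probe sets, the 27400 calls of PIK75 against control became 16203 under the spikes added before labelling. They became 18121 at an adjusted p below 0.01 and 5139 with at least 1.5-fold. By gene, 11947 and 12369 of 19775 were called (brightest and mean). The 20304 calls of PIK75 against TGX221 became 34963 under the hybridization spikes, 13106 at an adjusted p below 0.01 and 4294 with at least 1.5-fold. By gene, 9379 and 9608 of 19775 were called.

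For TGX221 against control, 1 member probe set (JAG1 209099_x_at) passed under the hybridization spikes and with array weights. The 147 calls over all probe sets became 12 with median centring, 927 under the spikes added before labelling, 886 under the hybridization spikes, 84 with cyclic loess, 270 without probe sets below the median level, 239 and 30 per gene (brightest and mean), 2115 with array weights, 4 with at least 1.5-fold, 1 with the actin covariate, and 0 in a fit of only the 2 groups, with the replicate block and at an adjusted p below 0.01 (8975 had an unadjusted p below 0.05 as deposited). The counts per gene are out of 19775 genes, the 147 out of 54613 probe sets. The cause of these moves was not tested.

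Leaving out each array in turn gave 12 to 18 member calls for PIK75 against control (lowest without PIK75 replicate 5), 0 to 1 for TGX221 against control (1 without TGX221 replicate 3) and 8 to 10 for PIK75 against TGX221. Over all probe sets the ranges were 22309 to 27186, 0 to 959 (959 without TGX221 replicate 3) and 15923 to 19913.

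The replicate block gave 18, 0 and 10 member calls in the 3 comparisons (for PIK75 against TGX221, NOTCH1 223508_at was lost at adjusted p = 0.0762 and JAG1 229924_s_at gained at 0.0476) and 25970, 0 and 16344 over all probe sets. Deviations of same-numbered arrays from their group means correlated at -0.0728, 0.0929 and -0.000879 between PIK75 and control, at 0.0531 and 0.00531 between TGX221 and control and at 0.0707 and 0.224 between PIK75 and TGX221, so the numbers were not taken to pair the arrays.

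Among differences that passed as deposited or under the alternative, changes of sign came from the hybridization spikes alone. For PIK75 against control, these gave -0.12 for DLL1 227938_s_at, -0.0023 for DLL3 222898_s_at, -0.16 for DLL3 229755_x_at, -0.23 for DLL3 230568_x_at, -0.29 for DLL4, -0.22 for JAG1 209097_s_at, -0.071 for JAG1 229924_s_at, -0.32 for JAG1 231183_s_at, -0.20 for JAG2 209784_s_at, -0.28 for JAG2 32137_at, -0.20 for NOTCH1 218902_at, -0.10 for NOTCH1 223508_at, -0.18 for NOTCH2 202445_s_at, -0.064 for NEURL1B, -0.084 for NEURL1, -0.083 for MFNG, -0.14 for DTX3, -0.044 for HEYL and -0.13 for HES7. For PIK75 against TGX221 they gave -0.19 for DLL3 229755_x_at, -0.22 for DLL4, -0.28 for JAG1 209097_s_at, -0.20 for JAG1 209098_s_at, -0.22 for JAG1 209099_x_at, -0.18 for JAG1 231183_s_at, -0.20 for JAG2 32137_at, -0.069 for NOTCH1 223508_at, -0.18 for NOTCH2 202445_s_at and -0.19 for NOTCH2 210756_s_at. By construction this scaling lowers every PIK75 value by the rise of the spikes. Of 833 alternative values of 38 named list genes, 800 kept their direction and call, 27 no longer passed and 6 reversed. These genes were named for passing as deposited, and some alternatives, such as other estimates of spread, cannot change a difference. The 800 are therefore no measure of how stable calls in the lists are.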
